A study of Mus musculus with 8 samples.

Results

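The adhesion machinery of regulatory T cells was examined through 10 genes: the integrin alpha chain genes Itga4, Itga6, Itgae and Itgal, the integrin beta chain genes Itgb1, Itgb2 and Itgb7, the selectin ligand gene Selplg, the hyaluronan receptor gene Cd44, and Icam2, which encodes an integrin ligand. All probes annotated with one of these symbols were taken, which gave 20 of the 25697 probes on the array and 9 of the 10 genes, because Itgal has no listed probe. RNA came from CD4+GFP+ cells of C57BL/6 mice with a FoxP3-GFP reporter, labelled as nTreg, in which green fluorescent protein marks cells expressing the regulatory T cell factor Foxp3. Every sample, treated or control, carried that reporter. There were 4 arrays titled G-CSF, labelled as treated with the growth factor G-CSF, and 4 titled naive, whose treatment label is saline. Dose, timing, age and the number of mice behind a sample are not given in the labels, so a p-value here reflects only how far single arrays of a label spread, and that spread may be technical.

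Integrins are paired surface receptors, each built of 1 alpha and 1 beta chain, that hold a leukocyte to vessel walls, to matrix and to other cells. The alpha 4 chain pairs with beta 1 or beta 7 for entry into inflamed tissue and gut, and the alpha L chain pairs with beta 2 to form LFA-1. The alpha E chain, also called CD103, pairs with beta 7 to form a receptor that binds E-cadherin on epithelium. CD103 marks a subset of regulatory T cells. PSGL-1, the product of Selplg, and CD44 start the rolling of cells on endothelium before integrins arrest them.

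Group labels need a caution before any value. A detection p-value, the share of negative control probes at least as bright as a probe, can only fall as the intensity rises, yet for 0 of the 8 arrays did the column beside the intensities do so. Each array was in order with exactly 1 p-value column, the one standing next to the equally numbered replicate under the opposite title. Directions below follow the labels of the intensities, and all of them turn if the intensities, not the p-values, were misplaced. The sorted cells carried T cell RNA: 7 of 7 T cell markers and 8 of 8 regulatory T cell markers on the array were well above background. For other cells, 11 of 12 neutrophil, 5 of 6 endothelial, 7 of 7 platelet and 3 of 3 progenitor markers were not, while 6 of 9 monocyte and macrophage markers, 5 of 8 dendritic cell and class II markers, 4 of 8 CD8 and NK markers, 2 of 4 erythroid markers and 1 of 6 B cell markers were. Arrays had 9588 to 10519 detected probes. G-CSF replicates 3 and 4 were brighter than the rest, with median raw intensities of 180.8 and 145, against 117.8 to 125.8 on the other 6 arrays.

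Most adhesion genes were measured, and few differed between the labels beyond the spread of their arrays. Of the 20 probes, 14 were kept for testing, with a detection p-value below 0.01 on 4 or more arrays, and stand for 8 genes. The other 6 probes, the single one of Itga4 and 5 of Cd44, were not well above background on any array. Of the 14 kept probes 1 was called, an Itgb1 probe that was lower in arrays labelled G-CSF, at a limma p-value adjusted over all kept probes under 0.05. Over all 10205 kept probes 2.2% were called, 0.951% as higher and 1.24% as lower, so 1 call among 14 probes is no result about these genes as a set. By the brightest probe of each gene limma called 0 of 8 genes; before adjustment 1 of 8 had a p under 0.05, as had 24.9% of all kept probes. The split of all calls, 97 higher and 127 lower, moved to 810 and 46 when arrays were scaled to the same median over all probes, and to 77 and 210 over the kept probes.

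Values are normalised log2 intensities, and a difference is the mean of arrays labelled G-CSF minus that of arrays labelled naive. By the brightest probe, 5 of the 8 genes had a positive and 3 a negative difference, with a median of 0.18, against a median of -0.0051 and quartiles of -0.24 and 0.24 over all kept probes. The groups did not overlap for 4 of the 14 member probes, 1 of Itgb1, 2 of Itgae and that of Selplg, where 13.6% of all kept probes had such groups, 6.78% with G-CSF higher and 6.85% with G-CSF lower. In bulk RNA, fewer cells expressing a gene and less RNA per cell cannot be told apart.

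**Figure D1:**
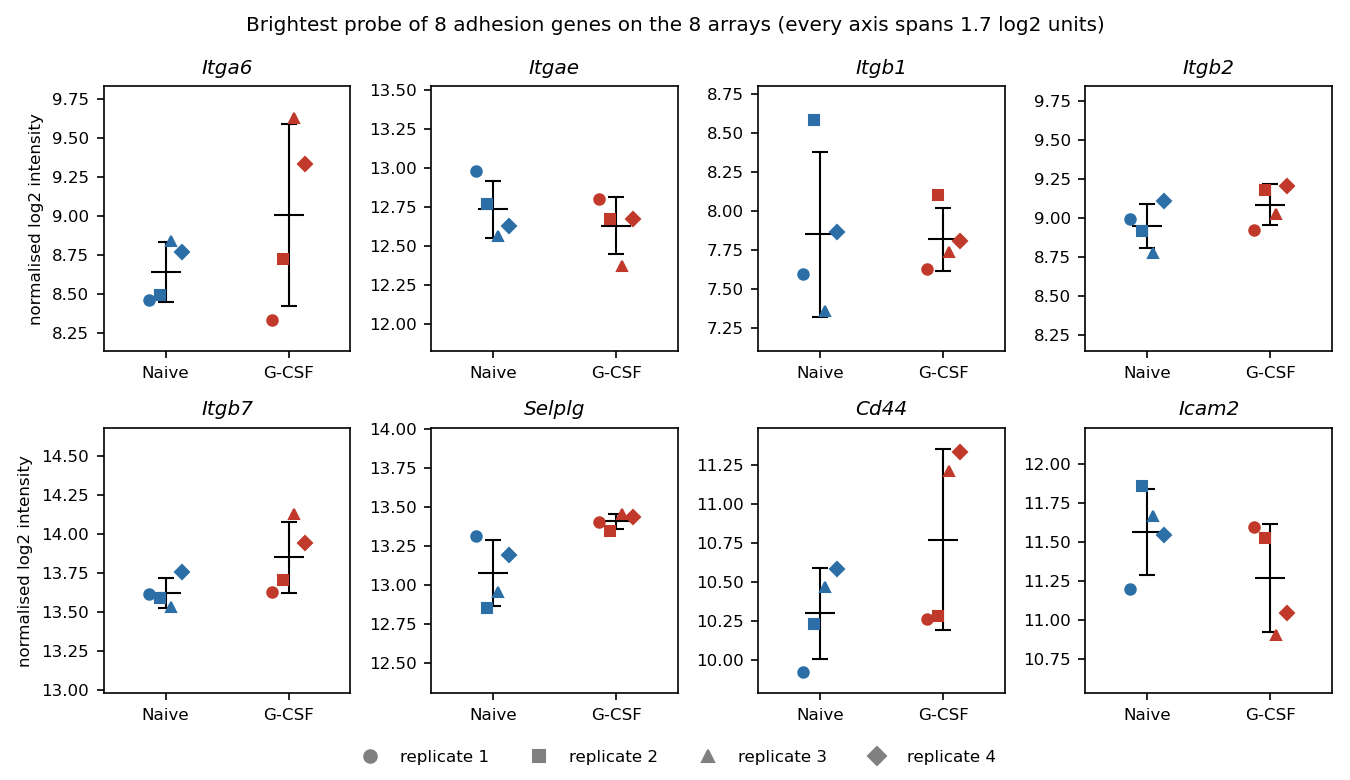
Normalised log2 intensity of the brightest probe of 8 adhesion genes on each array, in naive (blue) and G-CSF (red) arrays; symbols are replicates, and bars show the mean and SD of 4 arrays. Itga6 and Cd44 are highest and Icam2 is lowest in G-CSF replicates 3 and 4, while the 4 G-CSF arrays of Selplg all lie above the 4 naive arrays.

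Itgb1 encodes the beta 1 chain, the common partner of the matrix-binding alpha chains, and it has 2 probes that gave different answers. The dimmer, ILMN_2609304, read 6.65, 6.71, 6.58 and 6.38 in G-CSF replicates 1 to 4 and 7.12, 7.09, 7.54 and 7.39 in naive replicates 1 to 4. Every array labelled G-CSF was below every array labelled naive. The probe fell by 0.70 ± 0.15 on the log2 scale (SE, 4 arrays per group; limma adjusted p = 0.0471), a level 38.6% lower, with a 95% interval from -1.04 to -0.37. The brighter probe, ILMN_2789077, read 7.63, 8.10, 7.74 and 7.81 in arrays labelled G-CSF and 7.60, 8.58, 7.36 and 7.86 in those labelled naive. Its groups overlapped fully, and its difference was -0.031 ± 0.24 (SE), with an interval from -0.56 to 0.50 (adjusted p = 0.948). Both probes are annotated with the same transcript accession, and which stretch each reads is not given in the sources used here.

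The call of the dimmer Itgb1 probe was narrow. Before any correction its raw intensities were 179.1, 180.6, 306 and 205.9 in arrays labelled G-CSF and 215.1, 189.2, 211.6 and 223.4 in those labelled naive, so the raw groups overlapped and the brightest array held the highest value. The difference was negative in all 23 alternative settings, from -0.89 to -0.38, and passed the test in 7 of them. It did not pass without G-CSF replicate 2, 3 or 4 or without naive replicate 2, 3 or 4, where the change lay between -0.77 and -0.62. In each of those settings only 1 to 10 of all 10205 kept probes passed. Nor did it pass without background correction (-0.38, limma adjusted p = 0.0726). Without G-CSF replicates 3 and 4, the 2 brightest arrays, it was -0.60 ± 0.17 (SE, 4 naive and 2 G-CSF arrays; limma adjusted p = 0.248).

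Itgae, the alpha E chain gene, has 6 probes, all detected on every array, and none was called. The brightest, ILMN_1217629, read 12.80, 12.67, 12.37 and 12.67 in arrays labelled G-CSF and 12.98, 12.77, 12.57 and 12.63 in those labelled naive. Its groups overlapped, and the difference was -0.11 ± 0.15 (SE, 4 arrays per group; limma adjusted p = 0.687, interval -0.44 to 0.23). The probes fall into 2 annotated transcript accessions. The 3 probes of the first, which include the brightest, had differences of -0.11, -0.12 and -0.13. ILMN_2699898 lay at 12.42 to 12.71 in arrays labelled G-CSF and 12.53 to 12.94 in those labelled naive, and ILMN_1249573 at 9.57 to 9.76 and 9.38 to 10.03. All 3 had overlapping groups.

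The 3 Itgae probes of the second accession were less alike, with differences of -0.34, -0.27 and 0.020. ILMN_2628900 read 9.66, 9.49, 9.59 and 9.54 against 9.81, 9.95, 9.91 and 9.98 in arrays labelled naive, the smallest spread among naive arrays of the 14 kept probes. These groups did not overlap, with a difference of -0.34 ± 0.12 (SE, 4 arrays per group; limma adjusted p = 0.123) and an interval from -0.61 to -0.075. It was -0.34 without the 2 brightest arrays too. ILMN_2628899 also had groups that did not overlap, 9.16 to 9.29 against 9.31 to 9.70, and missed the test (adjusted p = 0.256). The dimmest, ILMN_2656090, had overlapping groups, 6.95 to 7.11 against 6.71 to 7.17. Scaling arrays to the median over all probes moved the median difference of all kept probes up by 0.29. Less that shift, the 5 Itgae probes with a negative difference stayed negative, from -0.29 to -0.067; before it was taken off, 4 of the 5 were positive.

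**Figure D2:**
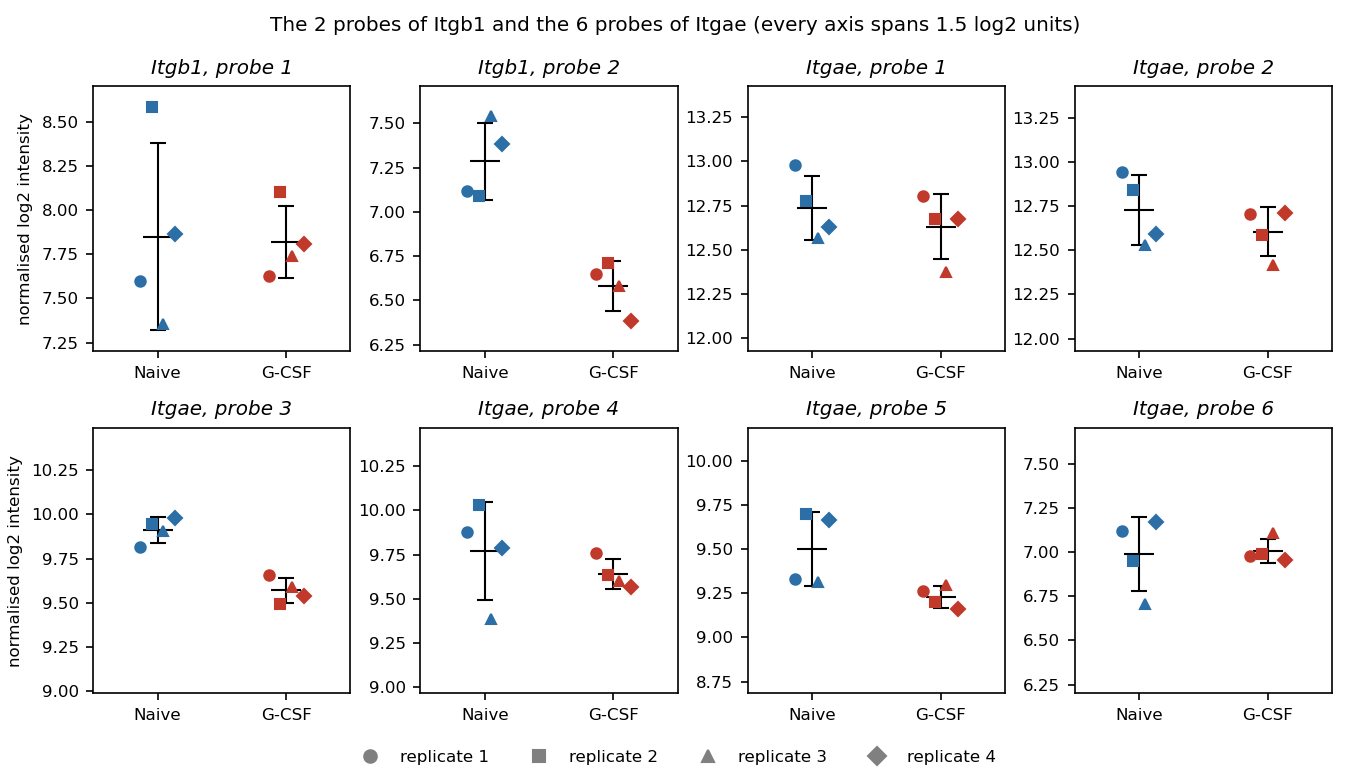
Normalised log2 intensity on each array for the 2 probes of Itgb1 and the 6 probes of Itgae, numbered from the brightest; symbols are replicates and bars show the mean and SD of 4 naive (blue) and 4 G-CSF (red) arrays. Probe 2 of Itgb1 and probes 3 and 5 of Itgae have groups that do not overlap, while the groups of the other 5 probes overlap.

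Itga6 encodes the alpha 6 chain of laminin receptors. Its probe, ILMN_1231492, read 8.33, 8.72, 9.63 and 9.33 in G-CSF replicates 1 to 4 and 8.46, 8.49, 8.84 and 8.77 in naive replicates 1 to 4. The arrays labelled G-CSF lay on both sides of the naive ones, with replicates 3 and 4 highest of all and replicate 1 lowest of all. The difference of 0.37 ± 0.26 (SE, 4 arrays per group; limma adjusted p = 0.391, interval -0.20 to 0.93) became -0.11 ± 0.18 without G-CSF replicates 3 and 4. The alpha 4 chain gene Itga4, whose product directs T cells to inflamed vessels and gut, was not measured by its 1 probe, which had detection p-values from 0.298 to 0.754. Raw intensities of that probe lay between 97.2 and 124.1, under the median of its array on all 8. A level of Itga4 RNA therefore cannot be given from these arrays, and Itgal was not analysed here.

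Itgb7 and Itgb2, the beta chain genes of gut homing and of LFA-1, differed by less than the test could call. Itgb7 read 13.63, 13.71, 14.13 and 13.94 in arrays labelled G-CSF and 13.62, 13.59, 13.53 and 13.76 in those labelled naive. The 2 brightest arrays again held its highest values, and the other 6 lay between 13.53 and 13.76. Its difference was 0.23 ± 0.15 (SE, 4 arrays per group; limma adjusted p = 0.354, interval -0.098 to 0.55), and 0.044 without those arrays. Itgb2 read 8.92, 9.18, 9.02 and 9.20 against 8.99, 8.91, 8.77 and 9.11, with overlapping groups and a difference of 0.14 ± 0.14 (SE; limma adjusted p = 0.546, interval -0.16 to 0.44). For the pair that forms CD103, the brightest Itgae probe therefore had -0.11 and Itgb7 0.23, neither called.

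Selplg, which encodes PSGL-1, the main leukocyte ligand of selectins, had the smallest p among the brightest probes of the 8 genes. Its probe read 13.40, 13.34, 13.45 and 13.43 in arrays labelled G-CSF and 13.31, 12.85, 12.95 and 13.19 in those labelled naive. The G-CSF arrays were close together, with an SD of 0.048 against 0.21, and lay above all naive arrays by a narrow margin. The difference was 0.33 ± 0.14 (SE, 4 arrays per group), a 1.26-fold level, with an interval from 0.021 to 0.64, and it missed the test over all probes (limma adjusted p = 0.179). It was 0.30 without the 2 brightest arrays and between 0.26 and 0.41 with any 1 array left out. With median scaling over the kept probes it was 0.15 (limma adjusted p = 0.486), a value that includes a shift of all kept probes by -0.070. With median scaling over all probes it was 0.51, which is 0.22 less the shift of all kept probes. Before these shifts are taken off, the size of the Selplg difference thus moved by more than 1.5 times with the scaling, and its sign did not turn.

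Cd44, which encodes a hyaluronan receptor that is raised on activated and memory T cells, was read by 1 of its 6 probes. ILMN_3114585 gave 10.26, 10.28, 11.21 and 11.33 in G-CSF replicates 1 to 4 and 9.92, 10.23, 10.46 and 10.58 in naive replicates 1 to 4. G-CSF replicates 3 and 4 stood above all others, and replicates 1 and 2 lay within the naive range. The difference, 0.47 ± 0.27 (SE, 4 arrays per group; limma adjusted p = 0.295, interval -0.12 to 1.06), was -0.028 ± 0.20 without those 2 arrays. The detected probe is annotated with another transcript accession than the 5 that were not well above background. Among those 5 the lowest detection p-value on any array was 0.0213 and the highest 0.752. Their raw intensities lay between 95.4 and 197.3, and those of the detected probe between 914.4 and 4451.

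Icam2, whose product on leukocytes and endothelium is bound by LFA-1, ran the other way in the same 2 arrays. Its probe read 11.60, 11.52, 10.90 and 11.05 in G-CSF replicates 1 to 4 and 11.20, 11.86, 11.66 and 11.54 in naive replicates 1 to 4. G-CSF replicates 3 and 4 were the lowest of the 8 arrays, followed by naive replicate 1. The difference was -0.30 ± 0.20 (SE, 4 arrays per group; limma adjusted p = 0.375, interval -0.74 to 0.15), and -0.0037 ± 0.19 without the 2 brightest arrays. The summed normalised intensity of the 4 measured CD8 and NK cell markers was also lowest in G-CSF replicates 3 and 4, and its part in the Icam2 values was not tested.

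**Figure D3:**
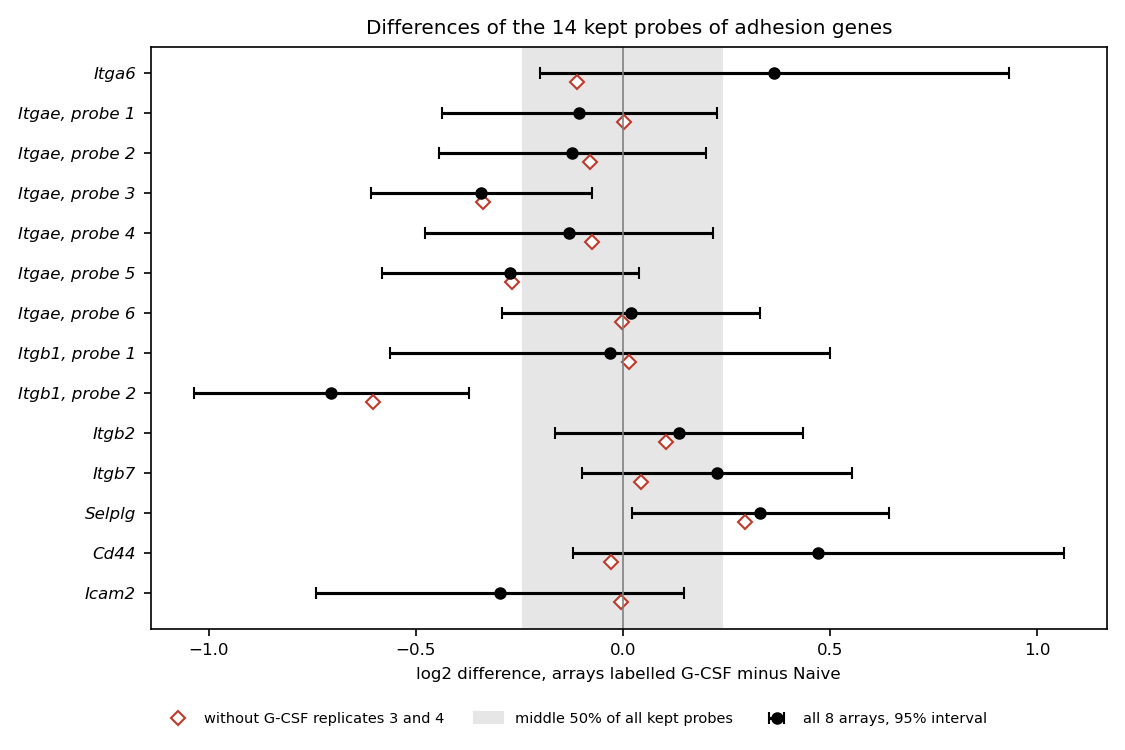
Log2 difference between arrays labelled G-CSF and naive for the 14 kept probes (black points with 95% intervals) and without G-CSF replicates 3 and 4 (open diamonds); the grey band spans the quartiles of all kept probes, -0.24 to 0.24. The differences of Itga6, Cd44 and Icam2 move to between -0.11 and -0.0037 without the 2 arrays, while probe 2 of Itgb1 stays at -0.60 and Selplg at 0.30.

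Several marker lists of other cells moved with the label or with the same 2 arrays. The summed normalised intensity of the 6 measured monocyte and macrophage markers, with Cd14 and Itgam not above background, was 2353 to 4058 in arrays labelled G-CSF and 1515 to 3414 in those labelled naive. G-CSF replicates 3 and 4 held its highest sums, 4058 and 3735, and naive replicate 1, which had the lowest Cd44 value of all, the next at 3414. The sum of the 7 T cell markers was 112395 to 151679 against 105277 to 113489, also highest in G-CSF replicates 3 and 4. That of the 8 regulatory T cell markers was 58674 to 65152 against 55206 to 70620. The sum of the 4 CD8 and NK markers ran lower under the G-CSF label, at 5459, 5785, 4546 and 4397 in G-CSF replicates 1 to 4 against 5782 to 6595 in naive arrays. Those groups overlapped by 1 array, and G-CSF replicates 3 and 4, where Icam2 was lowest, held the lowest sums. On the log2 scale Cd8b1, Nkg7 and Prf1 had differences of -0.33, -0.34 and -0.33, and Klrb1c 0.27. All 4 had overlapping groups, and none was called. Only Cd8b1 was itself lowest in G-CSF replicates 3 and 4. The sum of the 5 measured dendritic cell and class II markers was 3173 to 5215 against 2734 to 9863, with naive replicate 1 highest. Its members went different ways on the log2 scale. H2-Ab1, H2-Aa and H2-Eb1 had differences of -1.12, -0.98 and -1.12, and Cd74 and Siglech 0.43 and 0.054. All 5 had overlapping groups, and limma called none. Pecam1, the 1 measured endothelial marker, read by ILMN_2700982, was at 444.3 to 622.2 in arrays labelled G-CSF and 637.1 to 812.9 in those labelled naive, with no overlap. Its second probe, ILMN_3147074, had overlapping groups and a difference of 0.13 against -0.38 on this one, neither called (limma adjusted p = 0.576 and 0.181). The part of these markers, and of brightness, in the values of the adhesion genes was not tested.

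Of the other integrin chains, 18 of 20 are on the array and only 4 were measured, Itga3, Itgad, Itgav and Itgb5. The platelet chains Itga2b and Itgb3 and the myeloid chains Itgam and Itgax were not well above background, whereas Itgad, another chain of myeloid cells, was measured by both of its probes. Limma called 0 of the 4, and their median difference was 0.32. Before adjustment 1 of the 4 had a limma p under 0.05, as had 24.9% of all kept probes. Itga3, a laminin receptor chain, had 0.55 ± 0.20 (SE, 4 arrays per group; limma adjusted p = 0.135), and was detected on 3 of 4 arrays labelled G-CSF and 2 of 4 labelled naive. Itgad, a partner of beta 2, had 0.41 ± 0.43 (adjusted p = 0.567) on its brighter probe. That probe read 7.44, 8.06, 7.81 and 7.77 in arrays labelled G-CSF and 8.88, 7.23, 6.31 and 6.99 in naive replicates 1 to 4. Naive replicate 1 stood above all other arrays, as it did on the second Itgad probe, where it read 8.19 and the other arrays 6.38 to 7.25. Without naive replicate 1 the brighter probe differed by 0.92 ± 0.23 and passed the test (SE, 4 G-CSF and 3 naive arrays, limma adjusted p = 0.0381). In that setting 1089 of all 10205 kept probes passed, against 224 with all 8 arrays, so passing there is not particular to Itgad.

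Among 33 ligands and counter-receptors of adhesion, 28 were on the array, 14 were measured, and 1 was called, as lower. Over all kept probes 2.2% were called, so 1 call among 14 genes is no result about the list. Cd226 encodes DNAM-1, a receptor that works with LFA-1 and binds nectin-like ligands. Its brighter probe read 8.74, 8.99, 8.66 and 8.52 in arrays labelled G-CSF and 9.54, 9.32, 9.82 and 9.25 in those labelled naive. The groups did not overlap, and Cd226 fell by 0.75 ± 0.17 (SE, 4 arrays per group; limma adjusted p = 0.0489). A dimmer probe of Cd226 fell too, by 0.87 ± 0.15 (adjusted p = 0.0419). The fall of the brighter probe kept its sign in all 23 alternatives and passed the test in 12. It did not pass without G-CSF replicate 2, 3 or 4 or naive replicate 2, 3 or 4, where it lay between -0.84 and -0.64. In each of those settings only 1 to 10 of all 10205 kept probes passed. The summed CD8 and NK cell markers ran lower under the same label, at 4397 to 5785 against 5782 to 6595. Of the 4 markers in that sum, 3 had a negative difference and Klrb1c a positive one, 0.27. Their part in the fall of Cd226 was not tested. The 14 genes had a median of -0.011, with 7 positive and 7 negative.

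Enzymes that build the sugar and sulphate groups of selectin ligands had mostly negative differences without a call. Of 15 genes 11 were measured, 8 with a negative and 3 with a positive difference. Of all kept probes 49.5% had a positive difference. The median of the 11 was -0.29, against -0.0051 over all kept probes. Limma called 0 of the 11, and 5 had p under 0.05 before adjustment, as had 24.9% of all kept probes. Of those 5 genes, Chst2 and Tpst2 had positive differences. Gcnt1, the branching enzyme that prepares PSGL-1 for selectin binding, had -0.41 ± 0.17 (SE, 4 arrays per group; limma adjusted p = 0.167). Chst2, a sulphotransferase, had the largest positive value, 0.99 ± 0.26 (adjusted p = 0.0631), with 9.42, 9.41, 10.37 and 10.50 in G-CSF replicates 1 to 4 and 9.10, 8.78, 8.83 and 9.05 in naive arrays. Its groups did not overlap, and the difference was 0.48 without the 2 brightest arrays. Chst2 passed the test in 4 of 23 alternatives.

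Adaptors that join integrins to the cytoskeleton were measured for 24 of the 31 genes on the array. Limma called 0 of them, and 6 of the 24 had p under 0.05 before adjustment, as had 24.9% of all kept probes. Of the differences 13 were positive and 11 negative, with a median of 0.064. Itgb3bp, named for binding the beta 3 tail and also a centromere protein, read 9.61, 9.37, 9.37 and 9.29 in arrays labelled G-CSF and 9.85, 9.96, 10.16 and 9.99 in those labelled naive. Its groups did not overlap, and the difference of -0.58 ± 0.13 (SE, 4 arrays per group) narrowly missed the test (limma adjusted p = 0.0534) while passing in 9 of 23 alternatives. Ptk2b, which encodes the adhesion kinase PYK2, had 0.80 ± 0.24 (adjusted p = 0.0842), and 0.53 without the 2 brightest arrays. It passed the test in 3 of 23 alternatives.

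**Figure D4:**
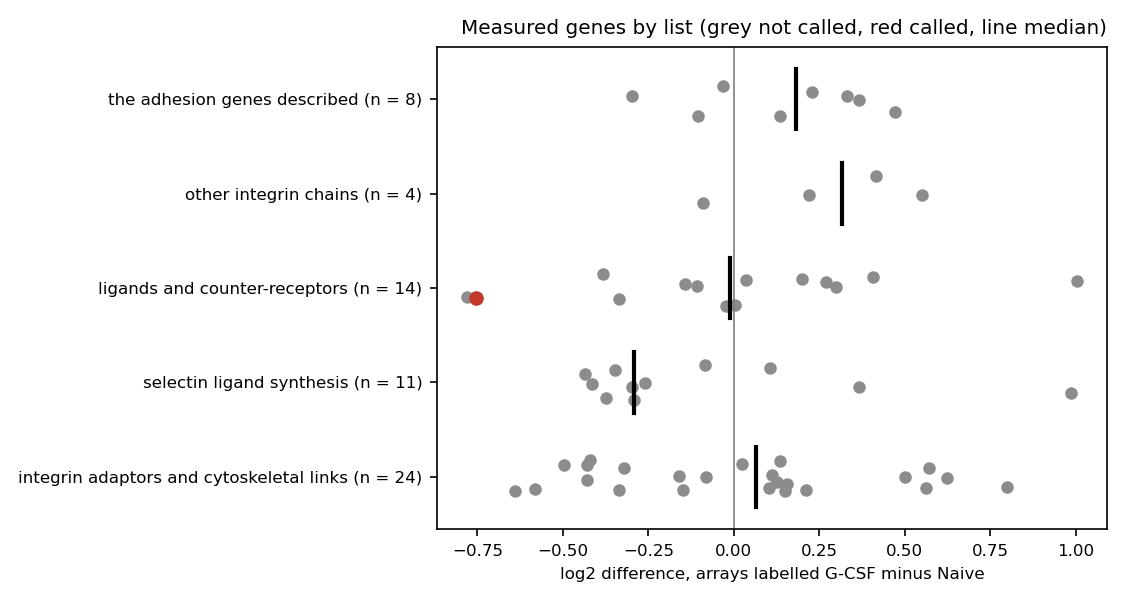
Log2 differences between arrays labelled G-CSF and naive for each measured gene (points, by its brightest probe) of the 8 adhesion genes and of 4 related lists; red marks the 1 called gene, Cd226, and black lines are medians. Medians run from -0.29 for selectin ligand synthesis to 0.32 for the 4 other integrin chains.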

How the data were processed

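Total RNA of 8 samples was read on 1-colour Illumina MouseRef-8 bead arrays. Deposited were raw probe intensities and a detection p-value for each, per the file headers; GenomeStudio is named, with no version, in the submitters' processing notes. The lowest intensities, 70.3 to 82.3, show no background subtraction. The deposited log2 values, for which no label or header states the steps, equal quantile-normalised log2 intensities centred per probe, to within an SD of 1.109e-04. Detection p-values were matched to the array with which their column is in order (tolerance 1e-04), a match that rests on values and sets no group; 12.8% to 23.5% of steps went against the order beside. Probe genes come from the platform annotation, with 23978 of 25697 probes given 1 symbol, 23962 of them matched to RefSeq's GRCm38.p6 table. The files name no build, so no coordinates are given.

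Background correction by normexp, quantile normalisation and log2 conversion used neqc with an offset of 16 (limma 3.58.1, R 4.3.3). Kept probes had a detection p under 0.01 on at least 4 of 8 arrays. Limma's lmFit and eBayes compared the labels, with Benjamini-Hochberg adjustment over 10205 probes, and scripts were tested on simulated data. The brightest kept probe stands for a gene. Named genes were the 10 members and, per list, up to 4 called genes or otherwise the 2 with the smallest p; the dimmer Cd226 probe was added after its values were seen. The members and lists were chosen with earlier results of these data known. Alternatives were other background corrections, scalings, filters, variance models and array weights, the deposited log2 values, the p-value columns as placed, a replicate block, each array left out and the 2 brightest arrays left out. The labels and headers name no slide or scan, so no batch was tested.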

Additional observations from a re-analysis of the deposited data

How the results depend on the processing

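The number of called probes, 224, became 856 with median scaling over all probes, 4 with no filter on dim probes, 48 with a detection p under 0.05, 3776 with array weights and 0 without the 2 brightest arrays (limma; 1439 had p under 0.05 before adjustment). It ranged from 1 to 1089 with 1 array left out, and was lowest without G-CSF replicate 2 or 4 or naive replicate 3 or 4. The deviations of same-numbered arrays from their group means correlated at -0.12, -0.021, 0.18 and 0.081. Such correlations, from 4 arrays per group, cannot tell whether the replicate numbers pair the samples. With the replicate block 4 probes were called, and the dimmer Itgb1 probe and Cd226 had limma adjusted p-values of 0.0873 each. The number of member genes called, 0, became 3 with array weights (Selplg, Cd44 and Icam2) and was 0 in the other 22 alternatives. Signs of uncalled differences turned in some settings. Without the 2 brightest arrays these were Itga6 (-0.11), Cd44 (-0.028), Itgae (0.0018 on its brightest probe and -0.0029 on its dimmest) and the brighter Itgb1 probe (0.015). With median scaling over all probes they were Itgae (0.11, 0.097, 0.22 and 0.073 on 4 probes) and the brighter Itgb1 probe (0.29), but that scaling shifts the median of all kept probes by 0.29, and less the shift they were -0.17, -0.19, -0.067 and -0.21, and 0.0080. With median scaling over kept probes they were the dimmest Itgae probe (-0.069) and Itgb7 (-4.5e-04). That scaling shifts the median of all kept probes by -0.070, further from 0 than either value. With array weights it was the brighter Itgb1 probe (0.051). With 1 array left out, the dimmest Itgae probe ranged from -0.073 to 0.082 and the brighter Itgb1 probe from -0.19 to 0.21. The causes were not tested. The change of the dimmer Itgb1 probe was -0.70 with and -0.38 without background correction. The test called 0 of the 8 genes at 4 arrays per group, and a missed threshold does not show that a difference is absent. The intervals given cover only the spread of arrays in the main setting, not the choice of processing. With median scaling over all probes Itgb2 had 0.49, shift included, outside its interval of -0.16 to 0.44.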
